A study of Mus musculus with 8 samples.

Results

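Eif4g1 and Eif4g3 encode the large scaffold proteins of eIF4F, the complex that brings the small ribosomal subunit to capped mRNA. Each gene was described here through its single transcripts, which were grouped by whether they hold a 21-nt coding microexon. The members were all transcripts of both genes in a kallisto table of estimated counts. They numbered 18 of the 60528 transcripts in that table, 9 from each gene. GENCODE M21 annotates 40 transcripts of these genes. The table held all 18 whose annotated support level is 1, 2 or 3, and the other 22, at level 5 or with none given, were not analysed here.

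The study set mouse neurons labelled as Eif4g1/Eif4g3 double-knockout (DKO) beside wildtype neurons (WT). All were grown in vitro to day 8 from CGR8, a mouse line of embryonic stem cells that needs no feeder cells, in Neurobasal-A with B27, and all were treated with cycloheximide at 100 µg/ml for 5 minutes. Ribosome footprints, the mRNA fragments that ribosomes protect, and total RNA were sequenced with 2 libraries in each of the 4 groups, DKO footprints, WT footprints, DKO RNA and WT RNA. The labels do not say which bases of either gene were altered, or whether the cultures of a genotype come from 1 clone. In the library names WT replicate 1 carries a culture code that begins with c, as the codes of both DKO cultures do, while WT replicate 2 is coded only WT. The labels do not explain these codes. DKO below is the label of a library, since the reads of both genes were present in every library and the table cannot check the genotype at the level of bases.

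Microexons are very short exons that neurons include far more often than other cells, and their inclusion is promoted by the splicing factor Srrm4. A microexon whose length is a multiple of a codon adds a few amino acids and leaves the reading frame as it was. The N-terminal part of the eIF4G proteins, where both microexons lie, also carries the binding site of the poly(A)-binding protein. The middle part binds the helicase eIF4A and the eIF3 complex.

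Eif4g1 (ENSMUSG00000045983) lies on the plus strand of chromosome 16 from 20668313 to 20692884 in GRCm38, and its microexon at chr16:20674786-20674806 is exon 4 of the 33 exons of Eif4g1-201. Eif4g3 (ENSMUSG00000028760) lies on the plus strand of chromosome 4 from 137993022 to 138208508, and its microexon at chr4:138095909-138095929 is exon 6 of the 35 exons of Eif4g3-202. Both microexons are coding and hold 7 codons in frame. The first is codon 50 of Eif4g1-201 and codon 22 of Eif4g3-202. The sequences below, from the GENCODE M21 transcripts, show what sets the isoforms with and without the exon apart, with the microexon in capitals and 24 bases of the exon on each side in lower case.
Eif4g1-201 (with): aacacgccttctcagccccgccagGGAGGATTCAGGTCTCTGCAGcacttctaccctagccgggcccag
Eif4g1-206 (without): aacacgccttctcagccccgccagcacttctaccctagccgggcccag
Eif4g3-202 (with): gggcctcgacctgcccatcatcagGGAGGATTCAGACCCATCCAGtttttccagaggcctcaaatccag
Eif4g3-214 (without): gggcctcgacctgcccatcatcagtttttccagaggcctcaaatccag
The microexons of the paralogs are identical at 16 of their 21 positions.

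The microexon is not the one difference between the main Eif4g1 isoforms. Eif4g1-201 also holds 21 coding bases at the start of its exon 21, at chr16:20684408-20684428, that Eif4g1-206 lacks. They are in capitals in the next pair, which is shown because reads over them also assign counts to one isoform or the other.
Eif4g1-201 (second segment): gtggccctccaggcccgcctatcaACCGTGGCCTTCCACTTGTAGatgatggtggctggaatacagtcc
Eif4g1-206 (second segment): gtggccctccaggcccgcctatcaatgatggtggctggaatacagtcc
Of the 5415 windows of 30 nt in Eif4g1-201, 120 (2.22%) are absent from Eif4g1-206, 47 of them over the microexon, 49 over the second segment and 24 elsewhere. Of the 5349 windows of Eif4g1-206, 54 (1.01%) are absent from Eif4g1-201, 26 over the microexon junction and 28 over the junction of the second segment. Against all other members, 28 windows (0.523%) are found in Eif4g1-206 alone, all 28 over the second segment. Of its 29 windows over the microexon junction, 0 are found in it alone. An isoform share of Eif4g1 therefore joins both differences and is not a measure of the microexon alone.

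In the table, 1 transcript of Eif4g1 and 1 of Eif4g3 hold the microexon, 5 and 3 skip it, and 3 and 5 do not span it. The complete coding isoforms of Eif4g1 in the table are Eif4g1-201, with the exon, and Eif4g1-206, without it. A further 6 Eif4g1 transcripts annotated with a start and a stop codon, 1 with the exon and 5 without it, were not analysed here. Eif4g1-216, which skips it, is annotated as incomplete at 3094 nt. For Eif4g3 the single full-length isoform is Eif4g3-202, at 6139 nt with the exon. Its skipping partners are shorter, Eif4g3-201 at 2663 nt, Eif4g3-204 at 3252 nt and Eif4g3-214 at 897 nt, so that most of the length of Eif4g3-202 sets it apart from them as well. The full-length skipping forms of Eif4g3 are among the transcripts not analysed here.

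**Figure D1:**
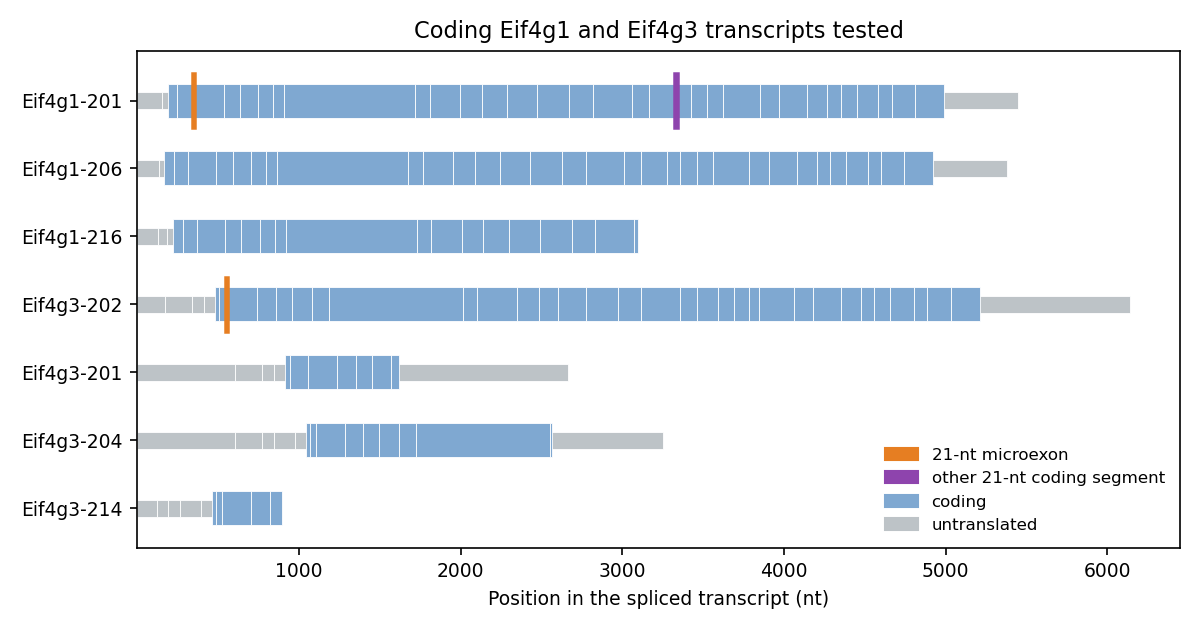
The 7 coding transcripts that were tested, drawn as spliced RNA on a scale of nucleotides from the 5′ end, with coding stretches in blue and untranslated ones in grey. Orange marks the 21-nt microexon of Eif4g1-201 and Eif4g3-202 and purple the other 21-nt coding segment of Eif4g1-201, and the 3 skipping isoforms of Eif4g3 are all shorter than Eif4g3-202.

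The libraries held 10490535 to 19753419 estimated counts in footprints and 14762047 to 44786643 in RNA, and 1478 to 6796 of a library's counts were assigned to Eif4g1 and 1580 to 5022 to Eif4g3. Neuronal markers were abundant in every RNA library (summed counts scaled to library size, CPM, of 6 genes 3170 and 3570 in DKO, 3710 and 3310 in WT). The labels name the cells cortical and glutamatergic. Of 5 glutamatergic markers, Slc17a6 made up nearly all of the sum, Slc17a7 stood at 0 to 0.128 CPM and Tbr1 at 0.383 to 1.04 CPM in RNA. On the first principal component of the RNA libraries, which held 56.4% of the variance, DKO lay at -8.9 and -12.9 and WT at -7.5 and 29.3, so that WT replicate 2 stood apart from the other cultures. The 3 fibroblast markers summed to 202 and 71.7 CPM in DKO, against 158 and 421 CPM in WT. The 4 astrocyte markers summed to 378 and 406 CPM in DKO, against 365 and 602 CPM in WT, and the glutamatergic markers to 241 and 198 CPM in DKO, against 182 and 90.7 CPM in WT. WT replicate 2 had the highest fibroblast and astrocyte sums and the lowest glutamatergic sum. The lists were set side by side by their order alone, with no test of a difference between genotypes. Of all 10 lists, 4 were lower in each DKO culture than in either WT culture, 2 were higher and 4 overlapped. The lower ones were 4 genes of the oligodendrocyte lineage (257 and 292 CPM in DKO, against 398 and 461 CPM in WT), 1 gene of dividing cells (77.7 and 92.6 CPM in DKO, against 106 and 139 CPM in WT), 3 GABAergic markers (214 and 260 CPM in DKO, against 267 and 265 CPM in WT) and 2 pluripotency markers (5.34 and 4.85 CPM in DKO, against 5.75 and 9.52 CPM in WT). The higher ones were the glutamatergic list and 2 microglial markers, which stood at 1.72 and 1.29 CPM in DKO, against 1.08 and 1.24 CPM in WT. The closest DKO and WT values lay near each other for the GABAergic, microglial and pluripotency lists. Among single transcripts with RNA counts, 16.8% had the lower order and 18.3% the higher one. These percentages are for transcripts, and none is given for sums over lists. Olig1, Sox2 and Mki67 were also listed but had no transcript matched to GENCODE M21, and are not in the sums. No other gene of these lists was at 0 in all libraries. The part of cell composition in the isoform values below was not tested, and in bulk samples fewer cells of a type and less RNA per cell cannot be told apart.

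At the level of whole genes, both targets were present in the libraries labelled DKO. Values are CPM, counts relative to library size scaled by TMM, and fold changes are DKO over WT from edgeR's quasi-likelihood fit of all 8 libraries. Eif4g1 footprints stood at 153.83 and 287.49 CPM in DKO, against 299.78 and 263.04 CPM in WT. Eif4g1 RNA stood at 125.43 and 304.87 CPM in DKO, against 288.29 and 279.88 CPM in WT. DKO replicate 1 was the lowest library in both assays, while DKO replicate 2 lay at the level of WT, so that the groups overlapped. The log2 fold change was -0.35 ± 0.52 in footprints (SE, adjusted p = 0.945) and -0.41 ± 0.52 in RNA (adjusted p = 0.947). Without DKO replicate 1 these values were 0.03 and 0.11.

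Eif4g3, the paralog, varied less across libraries. Its footprints stood at 164.45 and 172.47 CPM in DKO, against 168.62 and 153.32 CPM in WT, and its RNA at 102.86 and 138.5 CPM in DKO, against 120.08 and 128.33 CPM in WT. The log2 fold change was 0.07 ± 0.13 in footprints (95% interval -0.22 to 0.35) and -0.05 ± 0.13 in RNA (-0.33 to 0.24). The corresponding intervals for Eif4g1 were far wider, -1.72 to 1.03 and -1.78 to 0.97. Neither gene was called (edgeR adjusted p under 0.05, 0 of 2 in each assay, 0 with an unadjusted p under 0.05), beside 0.00775% of all genes tested in footprints and 0.0155% in RNA. Footprints relative to RNA, the translational efficiency, changed by 0.06 ± 0.73 for Eif4g1 and 0.11 ± 0.18 for Eif4g3 on the log2 scale, and again neither was called, beside 0% of all genes.

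The replicate spread of the paralogs differed. The biological coefficient of variation that edgeR estimated was 0.353 for Eif4g1, above that of 97.9% of genes tested, and 0.0987 for Eif4g3, close to the median of 0.0934. Per length, in RNA on the TPM scale, which divides counts by transcript length, Eif4g1 stood at 55.62 and 124.8 in DKO and at 116.1 and 112.3 in WT. Eif4g3 stood at 40.51 and 49.66 TPM in DKO RNA and at 42.02 and 52.29 TPM in WT RNA. Eif4g1 was thus the more abundant transcript per length in all 4 RNA libraries, by a ratio of 1.37 and 2.51 in DKO and 2.76 and 2.15 in WT. In footprints the ratio was 0.892 and 1.61 in DKO and 1.77 and 1.6 in WT, and DKO replicate 1 was the one library with more Eif4g3 than Eif4g1.

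**Figure D2:**
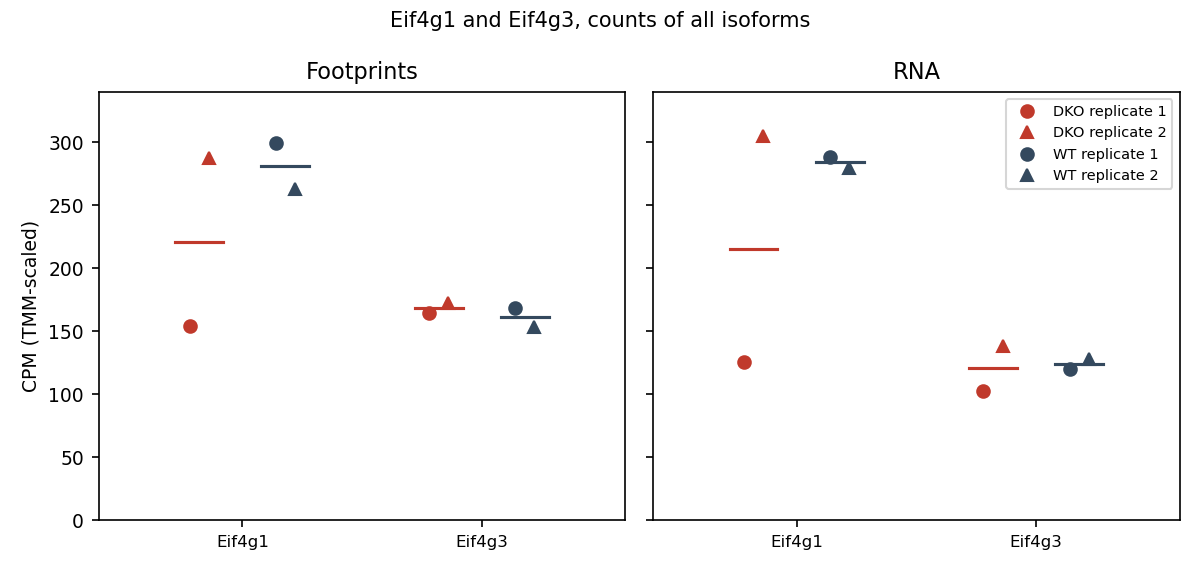
CPM of Eif4g1 and Eif4g3, counts of all isoforms together, in footprints and in RNA, with 1 point per library and a line at the mean of the 2 libraries of a group (DKO red, WT dark blue). DKO replicate 1 is the low point of Eif4g1 in both assays, at 153.83 CPM in footprints and 125.43 CPM in RNA, while the points of Eif4g3 lie close together.

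The microexon isoform Eif4g1-201 was the largest Eif4g1 transcript in footprints in every library. Its footprints stood at 120.25 and 210.91 CPM in DKO, against 229.8 and 245.82 CPM in WT. Its RNA stood at 59.92 and 158.84 CPM in DKO, against 183.12 and 232.69 CPM in WT. Both DKO libraries lay below both WT libraries in each assay, but neither difference passed the test (log2 fold change -0.52 ± 0.48, unadjusted p = 0.317 and adjusted p = 1 in footprints by edgeR; -0.93 ± 0.48, unadjusted p = 0.101 and adjusted p = 1 in RNA). Such an order in CPM was found for 16.3% of all transcripts with counts in footprints and 16.8% in RNA. With libraries or cultures left out the footprint value ran from -0.99 without DKO replicate 2 to -0.17 without DKO replicate 1, and the RNA value from -1.68 to -0.39 for the same cultures. The oligodendrocyte-lineage, dividing-cell, GABAergic and pluripotency sums were also lower in both DKO RNA libraries, and their part in the result was not tested.

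Of the 5 most abundant coding isoforms, the skipping isoform Eif4g1-206 had the highest replicate variation, with a coefficient of 1.04. Its footprints stood at 18.9 and 64.2 CPM in DKO, against 64.1 and 0.51 CPM in WT. In counts, WT replicate 2 had 7 footprints of Eif4g1-206 and 3373 of Eif4g1-201, while WT replicate 1 had 1089 and 3904. RNA of Eif4g1-206 stood at 57.81 and 128.39 CPM in DKO, against 89.18 and 32.26 CPM in WT. The WT replicates thus differed 126-fold in footprints and 2.76-fold in RNA, and WT replicate 2 was the lowest library of all in both assays. The log2 fold changes, 0.36 ± 1.55 in footprints and 0.62 ± 1.54 in RNA (adjusted p = 1 for both, edgeR), were small beside their errors. Without WT replicate 2 the footprint value was -0.62, and without WT replicate 1 it was 6.34. The RNA value ran from 0.06 without DKO replicate 2, or without the culture WT replicate 2, to 1.54 without WT replicate 1.

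Eif4g1-216, the shorter skipping isoform, stood at 7.66 and 20.69 CPM in DKO footprints, against 18.78 and 16.98 CPM in WT footprints. In RNA it stood at 4.16 and 10.69 CPM in DKO, against 10.73 and 10.37 CPM in WT. Here WT replicate 2 was not low, and DKO replicate 1 was the lowest library in both assays. The log2 fold changes were -0.33 ± 0.58 in footprints and -0.52 ± 0.58 in RNA (adjusted p = 1 for both, edgeR).

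The low level of Eif4g1 in DKO replicate 1 was shared by its coding isoforms, with and without the microexon. Relative to DKO replicate 2, footprints of DKO replicate 1 stood at a ratio of 0.57 for Eif4g1-201, 0.294 for Eif4g1-206 and 0.37 for Eif4g1-216. In RNA the ratios were 0.377, 0.45 and 0.389 in the same order of isoforms. The DKO cultures carry different culture codes, and DKO replicate 1 had the most counts of the RNA libraries and the fewest of the footprint libraries. Summed fibroblast markers also differed, at 202 CPM in DKO replicate 1 and 71.7 CPM in DKO replicate 2. In WT replicate 2 they stood at 421 CPM, with Eif4g1 RNA at 279.88 CPM. The part of these differences in the result was not tested.

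Eif4g1-209, a retained-intron transcript of 548 nt toward the 3′ end of the gene that does not span the microexon, had 1 footprint count in each DKO library, against 9 and 7 in WT. Summed, 2 against 16 counts gave a ratio of 0.148 per library total (exact 95% interval 0.0165 to 0.63, counting error only). Its fitted log2 fold change of -2.66 ± 0.63 had an unadjusted p = 0.00506 and did not pass (adjusted p = 0.605, edgeR), and it was one of the members with DKO below WT in both libraries. RNA of Eif4g1-209 stood at 2.35 and 3.52 CPM in DKO, against 3.24 and 3.03 CPM in WT, and the groups overlapped.

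Eif4g3-202, the microexon isoform of Eif4g3, carried 95.6% to 96.1% of its gene's counts in footprints and 91.8% to 96.6% in RNA. It is the single full-length Eif4g3 isoform analysed, so that neither these percentages nor its levels below measure microexon inclusion. Its footprints stood at 151.08 and 169.84 CPM in DKO, against 168.7 and 147.14 CPM in WT, and its RNA at 97.4 and 132.32 CPM in DKO, against 113.81 and 117.18 CPM in WT. The groups overlapped, with log2 fold changes of 0.02 ± 0.17 in footprints and -0.01 ± 0.17 in RNA (adjusted p = 1 for both, edgeR). It had the lowest replicate variation of the 10 members tested, with a coefficient of 0.145 against a median of 0.36 over all transcripts tested.

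Of the skipping forms of Eif4g3, Eif4g3-214 was the one with more than 1 CPM of footprints, at 5.37 and 6.21 CPM in DKO, against 5.95 and 5.17 CPM in WT. Its RNA was lower, at 0.73 and 1.1 CPM in DKO, against 0.51 and 1.48 CPM in WT. Neither difference passed (log2 fold change 0.06 ± 0.54 in footprints and -0.15 ± 0.56 in RNA, adjusted p = 1 for both, edgeR). Eif4g3-201 stood at 0.3 and 0.61 CPM in DKO footprints, against 0.59 and 0.66 CPM in WT footprints. Eif4g3-204 had no footprints in DKO replicate 1 and WT replicate 2, and stood at 0.67 CPM in DKO replicate 2 and 0.88 CPM in WT replicate 1.

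**Figure D3:**
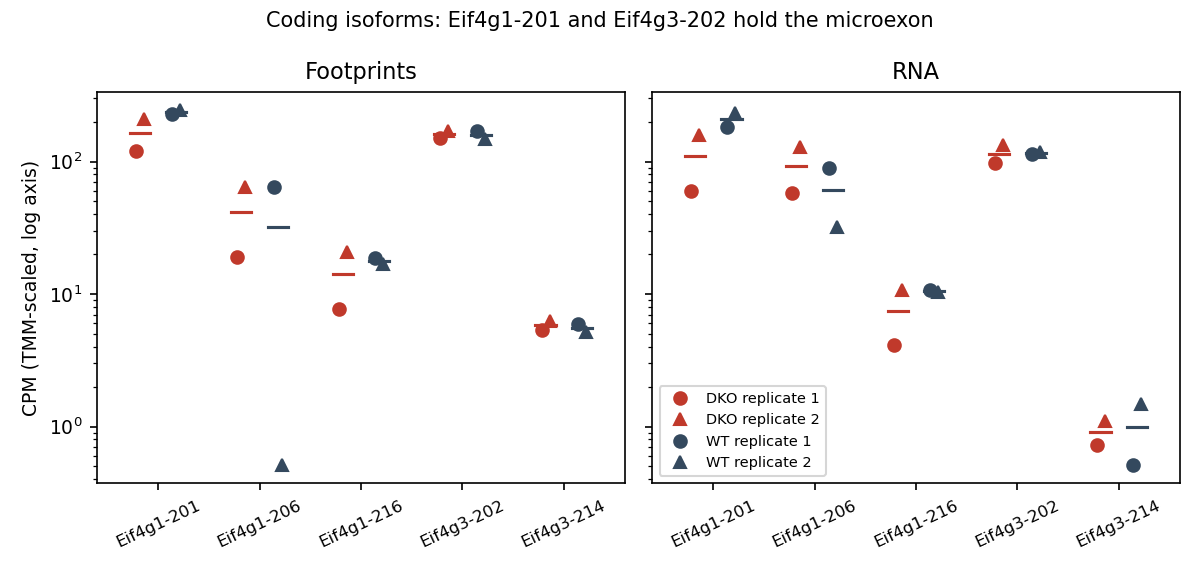
CPM of the 5 most abundant coding isoforms on a log axis, in footprints and in RNA, with 1 point per library and a line at the arithmetic mean of a group (DKO red, WT dark blue). Eif4g1-201 lies lower in each DKO library than in either WT library in both assays, and the footprints of Eif4g1-206 fall to 0.51 CPM in WT replicate 2.

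The transcripts that do not span the microexon are annotated as retained introns or processed transcripts. For Eif4g1 they held 0.0206% to 0.193% of the gene's counts in footprints and 1.1% to 1.94% in RNA. For Eif4g3 the range was 0.0334% to 0.521% in footprints and 1.77% to 6.0% in RNA. Eif4g3-208, a processed transcript of 3765 nt, stood at 1.01 and 1.39 CPM in DKO RNA, against 2.73 and 4.22 CPM in WT RNA, and had 1 footprint count in all libraries together. Eif4g3-209, a retained intron, stood at 1.24 and 0.92 CPM in DKO RNA, against 0.7 and 3.07 CPM in WT RNA, with no footprint in any library.

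Of the 18 members, 10 passed the filter on low counts and were tested, 4 of Eif4g1 and 6 of Eif4g3. The other 8 had 1 to 23 counts over all libraries and at most 16 in a library. These were Eif4g1-208, Eif4g1-219 and Eif4g1-220, which skip the microexon, and Eif4g1-211, Eif4g1-213, Eif4g3-206, Eif4g3-211 and Eif4g3-213, which do not span it. Eif4g3-209 had no footprint, so that 9 members could be tested in footprints and in translational efficiency. Of these 9, and of the 10 in RNA, 0 were called by edgeR and 0 by DESeq2. All transcripts with counts gave 0.00268% called in footprints and 0% in RNA and in translational efficiency. At an unadjusted p under 0.05 there was 1 member of 9 in footprints, beside 4.8% of all transcripts, and 1 of 9 in translational efficiency, beside 4.84%, Eif4g1-209 both times. In RNA there were 0 of 10, beside 4.07%. DKO values lay below WT values in both libraries for 2 of the 9 in footprints, Eif4g1-201 and Eif4g1-209, beside 16.3% of all transcripts. In RNA this held for 3 of the 10, Eif4g1-201, Eif4g3-204 and Eif4g3-208, beside 16.8%. DKO values lay above WT values in both libraries for 0 of the 9 in footprints, beside 11.6% of all transcripts. In RNA this held for 0 of the 10, beside 18.3%. In footprints the SE of the log2 fold change had a median of 0.554 over transcripts, against 0.128 over genes. Changes of several SE could be missed at this replication, since Eif4g1-209 at -2.66 ± 0.63 did not pass (adjusted p = 0.605, edgeR).

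The next comparison asked whether the microexon isoform took another share of its gene in DKO neurons. The share is that of the isoforms with the exon among the coding isoforms that hold it or join its neighbours, from counts divided by transcript length. Annotated isoforms that were not analysed here, with and without the exon, are not part of it for either gene. For Eif4g1 RNA the share was 47.6% and 51.6% in DKO, against 62.7% and 81.7% in WT. Both DKO libraries thus lay below both WT libraries, at means of 49.6% ± 2.8 in DKO and 72.2% ± 13.4 in WT (SD, n = 2 each). The difference of -22.5 percentage points had an exact permutation p = 0.333, the smallest that 2 against 2 libraries allow. It exceeded the gap between the WT replicates, 19.0 points, and that between the DKO replicates, 4.0 points. Among all transcripts of genes with several, 15.5% had a lower share of their gene's counts in each DKO RNA library than in either WT RNA library, and 17.6% a higher one. The skipping isoform Eif4g1-206 was of the higher kind, at 46.5% and 42.6% of the gene's counts in DKO RNA, against 31.2% and 11.6% in WT RNA. The oligodendrocyte-lineage, dividing-cell, GABAergic and pluripotency sums were lower in both DKO cultures as well, and the glutamatergic sum was higher. The wide gap in WT lies between the culture whose code begins with c, at 62.7%, and the culture coded only WT, at 81.7%. The part of cell composition or of the culture's origin was not tested. Without WT replicate 2, the culture that stood apart, the difference was -13.0 points, and without WT replicate 1 it was -32.0 points.

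In footprints the same share of Eif4g1 was 78.7% and 67.3% in DKO, against 70.1% and 89.0% in WT. The groups overlapped, at means of 73.0% ± 8.0 in DKO and 79.6% ± 13.3 in WT (SD, n = 2 each), and the difference of -6.6 points had an exact permutation p = 0.667. Without WT replicate 2 the difference was 2.9 points. Whether the difference between genotypes itself differed between RNA and footprints was not tested.

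For the Eif4g1 share the counting intervals were narrower than the gap between replicates. As a share of counts not divided by length, the microexon isoform of Eif4g1 took 49.2% (95% Wilson interval 47.9 to 50.4) and 53.3% (52.0 to 54.7) in DKO RNA. In WT RNA it took 64.7% (63.3 to 66.1) and 84.5% (83.6 to 85.3). The intervals cover counting error only and take every count as one that tells the isoforms apart. They leave out the error of dividing reads among isoforms, which the table does not give.

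For Eif4g3 the microexon shares of the genotypes overlapped. In RNA it was 93.2% and 93.0% in DKO, against 94.9% and 90.0% in WT, a difference of 0.6 points (exact permutation p = 1.0). In footprints it was 80.1% and 79.0% in DKO, against 79.4% and 79.9% in WT, a difference of -0.1 points (exact permutation p = 1.0). These shares rest on short skipping isoforms, and the annotated full-length ones were not analysed here.

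**Figure D4:**
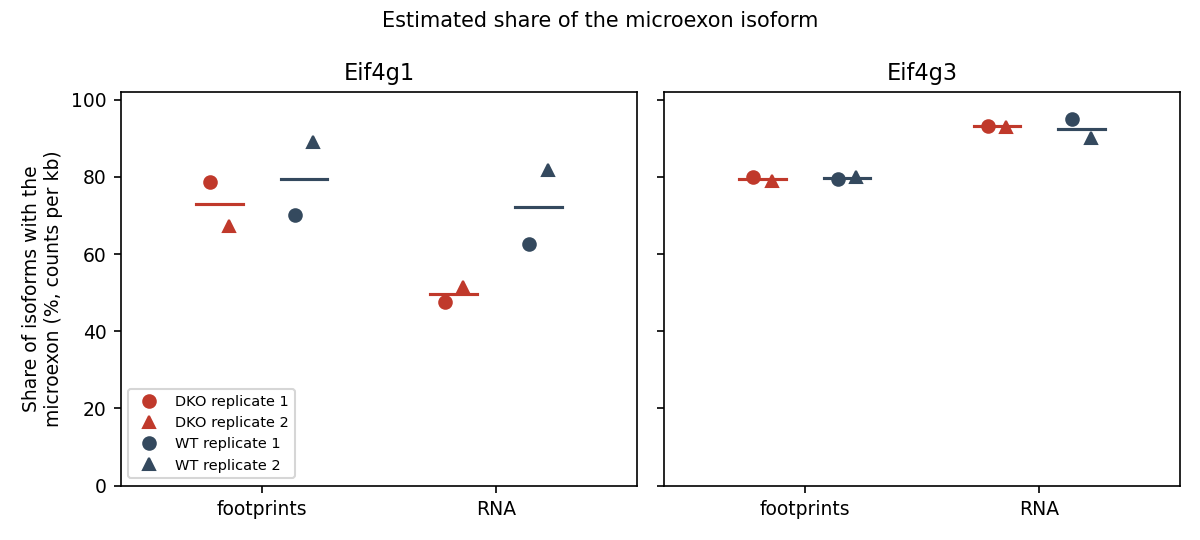
Share of the isoforms with the microexon in percent, from counts per kb, for Eif4g1 and Eif4g3 in footprints and in RNA, with 1 point per library and a line at the mean of a group (DKO red, WT dark blue). For Eif4g1 RNA the DKO points (47.6% and 51.6%) lie below the WT points (62.7% and 81.7%), and in the other panels the groups overlap.

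The usage of each transcript within its gene was also tested over all transcripts with edgeR's diffSpliceDGE, in which a change is relative to the average of the gene. Of 9 members with footprints and 10 with RNA, 0 were called and 0 had an unadjusted p under 0.05, beside 0.301% of all transcripts called in footprints and 0.443% in RNA. In RNA the log2 usage change was -0.52 for Eif4g1-201 (unadjusted p = 0.541, adjusted p = 1) and 1.03 for Eif4g1-206 (unadjusted p = 0.294, adjusted p = 1). In footprints it was -0.14 for Eif4g1-201 and 0.75 for Eif4g1-206 (adjusted p = 1 for both). limma-voom's diffSplice also called 0 members but gave larger values, in RNA -1.55 for Eif4g1-201 and 1.81 for Eif4g1-206 (adjusted p = 0.568 and 0.468) and in footprints -1.25 and 2.87 (adjusted p = 1 and 0.857). Without footprints of WT replicate 1, Eif4g1-206 was called for usage in footprints, at 6.59 (adjusted p = 0.0311), a setting in which its WT value is the 7 counts of WT replicate 2. With both libraries of that culture left out the value was 6.58 and was not called (adjusted p = 0.0645). On data simulated with the spread of these transcripts the usage test found few changes, so that a missing call says little about usage.

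Footprints were then set beside the RNA of the same culture, to see whether ribosomes held another isoform mix than the RNA. Counts of both assays were divided by full transcript length, although translating ribosomes lie on coding bases. Coding bases make up 4800 of 5444 nt in Eif4g1-201, 4758 of 5378 nt in Eif4g1-206 and 2875 of 3094 nt in Eif4g1-216. They make up 4734 of 6139 nt in Eif4g3-202 and 438 of 897 nt in Eif4g3-214. The part of coding length in the shares and isoform ratios below was not tested. For Eif4g1 the microexon share was higher in footprints than in RNA by 31.0 and 15.7 points in the DKO cultures and by 7.5 and 7.3 points in the WT cultures. The mean over the 4 cultures was 15.4 ± 11.1 points (SD, n = 4), positive in 4 of 4, with an exact sign-flip permutation p = 0.125, the smallest that 4 cultures allow. For Eif4g3 the mean was -13.2 ± 2.3 points, negative in 4 of 4 cultures (exact permutation p = 0.125), but its direction depended on which isoforms were counted. With complete coding isoforms alone, which leaves out Eif4g3-214, it was 1.0 ± 0.7 points and positive in 4 of 4 cultures (exact permutation p = 0.125), and by counts not divided by transcript length it was -2.1 points. For Eif4g1 the complete isoforms gave 20.1 ± 11.4 points, positive in 4 of 4 cultures. The labels spell the culture code of DKO replicate 2 in another way for footprints than for RNA, so that its pairing is uncertain. Without it the means were 15.3 points for Eif4g1 and -12.9 points for Eif4g3.

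By single isoform, the ratio of footprint CPM to RNA CPM in a culture was 2.01 and 1.33 in DKO and 1.25 and 1.06 in WT for Eif4g1-201. For Eif4g1-206 it was 0.327 and 0.5 in DKO and 0.719 and 0.0158 in WT. The microexon isoform was thus above 1 in all 4 cultures and the full-length skipping isoform below 1 in all 4. The shorter skipping isoform Eif4g1-216 did not follow Eif4g1-206, at 1.84 and 1.94 in DKO and 1.75 and 1.64 in WT. Eif4g3-202 stood at 1.55 and 1.28 in DKO and 1.48 and 1.26 in WT. Eif4g3-214 reached 7.36 and 5.65 in DKO and 11.7 and 3.49 in WT, on 8 to 36 RNA counts in a library. The retained-intron transcript Eif4g1-209 had the lowest ratios of these 6 isoforms in the DKO cultures, 0.0426 and 0.017, against 0.164 and 0.168 in WT. The DKO over WT change of translational efficiency was 0.41 ± 0.67 for Eif4g1-201 and -0.25 ± 2.18 for Eif4g1-206 on the log2 scale (adjusted p = 1 for both, edgeR), and 0.03 ± 0.24 for Eif4g3-202 (adjusted p = 1).

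**Figure D5:**
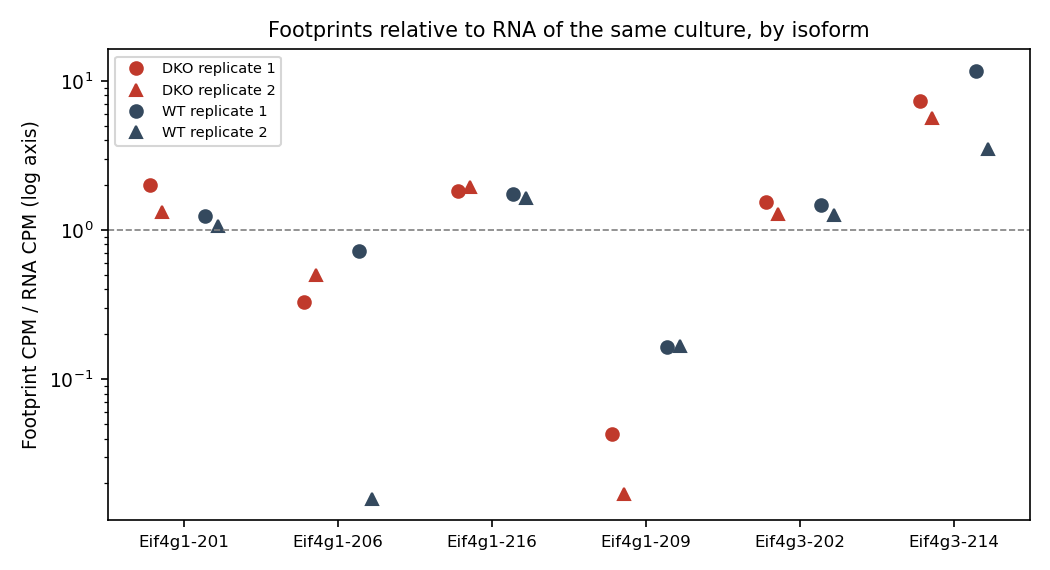
Ratio of footprint CPM to RNA CPM of the same culture on a log axis for 6 isoforms, with 1 point per culture (DKO red, left; WT dark blue, right) and a dashed line at 1. Eif4g1-201 lies above 1 in all 4 cultures and Eif4g1-206 below it, with WT replicate 2 at 0.0158.

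Partners and regulators of the eIF4G proteins were listed as 34 genes of cap binding, the helicase, poly(A) binding, the inhibitory 4E-binding proteins, the Mnk kinases, eIF3 and the Fmr1 repressor complex. Of these, 33 were tested and Eif4ebp3 was not. In footprints 0 were called higher and 0 lower by edgeR, 0 had an unadjusted p under 0.05, beside 5.62% of all genes, and DESeq2 called 0. In RNA 0 were called in either direction, 1 of 33 had an unadjusted p under 0.05, beside 5.57% of all genes, and DESeq2 called 0. In each assay 23 had a positive and 10 a negative log2 fold change, at a median of 0.04 in footprints and 0.06 in RNA, beside 0.003 and -0.001 over all genes tested.

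The smallest p-values among the list's footprints belonged to Mknk1, a kinase that phosphorylates the cap-binding protein, at 22.1 and 17.7 CPM in DKO, against 16.3 and 16.4 CPM in WT (log2 fold change 0.27 ± 0.14, adjusted p = 0.849, edgeR). Eif3d, an eIF3 subunit that can itself bind the cap, followed at 187.1 and 183 CPM in DKO, against 174.8 and 153 CPM in WT (0.17 ± 0.10, adjusted p = 0.852, edgeR). Among negative values, the kinase Mknk2 stood at -0.15 ± 0.13 and the eIF3-associated Eif3j1 at -0.09 ± 0.09. In RNA they belonged to the eIF3 subunit Eif3g at 80.6 and 74.6 CPM in DKO, against 67 and 64.9 CPM in WT (0.24 ± 0.09, unadjusted p = 0.0232, adjusted p = 0.851, edgeR). The cap-binding relative Eif4e3 stood at 0.35 ± 0.18, Paip1, which binds the poly(A)-binding protein, at -0.19 ± 0.11, and Cyfip1, which binds the cap-binding protein and Fmr1, at -0.20 ± 0.11 (adjusted p = 0.851 for each, edgeR).

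Known regulators of neuronal microexons are given by their RNA values alone. Nova2 was also listed but had no transcript matched to GENCODE M21. Srrm4, which promotes microexon inclusion, stood at 15.2 and 13.97 CPM in DKO, against 13.23 and 10.58 CPM in WT. Its paralog Srrm3 stood at 25.42 and 24.66 CPM in DKO, against 26.65 and 24.83 CPM in WT. Ptbp1, a repressor of neuronal exons that neurons switch off, stood at 36.46 and 34.54 CPM in DKO, against 31.89 and 47.4 CPM in WT. WT replicate 2 had the lowest Srrm4 and the highest Ptbp1 of the 4 cultures, and also the highest fibroblast and astrocyte sums. The part of these regulators in the microexon share was not tested. Nova1 averaged 359 CPM in DKO and 398 CPM in WT, and Ptbp2, the neuronal paralog of Ptbp1, averaged 219 CPM in DKO and 236 CPM in WT. Of the Rbfox proteins, which bind beside neuronal exons, Rbfox1 averaged 147 CPM in DKO and 153 CPM in WT, Rbfox2 264 CPM in DKO and 260 CPM in WT, and Rbfox3 48.4 CPM in DKO and 42.3 CPM in WT. The RNA-binding proteins Celf2, Elavl2, Elavl3 and Elavl4 were also present. Celf2 averaged 81.4 CPM in DKO and 78.8 CPM in WT. Elavl2 averaged 231 CPM in DKO and 240 CPM in WT, Elavl3 207 CPM in DKO and 216 CPM in WT, and Elavl4 229 CPM in DKO and 237 CPM in WT.

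Across the 8 libraries the paralogs had a Pearson correlation of 0.388 on log2(CPM + 1), which ran from -0.3 to 0.694 with 1 library left out. The points share 4 cultures and 2 assays, and the correlations are given as descriptions. Among 9949 genes, the closest to Eif4g1 were Scn3b, a sodium channel subunit (0.941), the glycosyltransferase Galnt16 (0.939), the transcription factor Sall2 (0.921), Nap1l5, an imprinted gene (0.891), and the semaphorin receptor Plxna1 (0.891). Nap1l5 shared the low DKO replicate 1, at 130.3 and 342.1 CPM in DKO RNA, against 323.3 and 279.4 CPM in WT RNA. Its footprints stood at 114.7 and 233.4 CPM in DKO, against 215.2 and 223.1 CPM in WT. The closest to Eif4g3 were the lipid transporter Abca3 (0.989), the axonal motor Kif1a (0.986), the folate enzyme Aldh1l1 (0.983), Prrc2c (0.981) and the clustered protocadherin Pcdha12 (0.979). These 5, like Eif4g3, had more CPM in all 4 footprint libraries than in any RNA library. The counts of Pcdha12 are uncertain, since the protocadherins of its cluster share their last exons.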

How the data were processed

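Ribosome footprints and total RNA of 4 cultures, 2 DKO and 2 WT, were measured in 8 libraries. Per the labels' protocols, the ARTseq kit was used. The submitters' processing notes name kallisto, Bowtie, Trimmomatic and FastQC. The sources used here do not give their versions and settings, the transcript set or the use of strand. The authors deposited estimated counts for each Ensembl transcript, all of them whole numbers. kallisto divides reads among isoforms by the bases that differ, and no error of that division was deposited.

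Of 60528 transcripts, 60444 (99.86%) were found in GENCODE M21 (GRCm38), and the 84 not found, with 0.0765% to 0.151% of a library's counts, were left out. Counts were fitted with edgeR 4.0.16 (R 4.3.3, limma 3.58.1) in 1 quasi-likelihood model of all 8 libraries, with TMM scaling, a mean per group and 4 residual degrees of freedom. A call needed an adjusted p-value (Benjamini-Hochberg) under 0.05. For genes, filterByExpr with a minimum count of 10 had to pass in both assays (12898 tested, 5403 not). For transcripts it was run over the 4 groups (39734 fitted), a choice made after the members' counts had been seen, and shares of calls are over those with counts in the assay (37349 in footprints and 38783 in RNA). Usage was tested for 34545 transcripts of genes with at least 2. The p-values measure the spread between libraries that the labels name as replicates, and the model takes footprints and RNA from 1 culture as independent. Windows of 30 nt were read from the GENCODE transcripts, all bases included. No transcript of another gene holds a window of the Eif4g1 members, while 2 windows of Eif4g3-202, 16 of Eif4g3-208 and 14 of Eif4g3-213 occur elsewhere in the table.

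The members, lists and tests were chosen with earlier results of these data known. Named genes are the members, the listed partners with the 2 smallest p-values per direction and assay, the 5 genes most correlated with each target among those with a mean of at least 10 CPM, and a list of splicing regulators. The procedure was tested on simulated data: the gene-level fit recovered most of the changes put in, the transcript-level fit far fewer, and the usage test did so only where the simulated spread was small. Alternatives were RLE scaling, no filter, DESeq2 1.42.0, limma-voom, replicate blocks, coding isoforms alone, other definitions of the share and leaving out each library. After seeing the data, 3 more were added: leaving out a whole culture, a block in which the numbers are crossed, and complete isoforms alone for footprints against RNA.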

Additional observations from a re-analysis of the deposited data

How the results depend on the processing

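Over 897 recomputed values of 62 results, 820 kept their direction and their side of the threshold, 72 reversed in sign and 5 moved in other ways. No change of a gene, transcript or share was called to begin with, and 1 alternative gave a call, that of Eif4g1-206 for usage without footprints of WT replicate 1 (1 member called in place of 0). Leaving out libraries or whole cultures, the log2 fold change ran from -0.87 to 0.03 for Eif4g1 footprints, from -1.18 to 0.11 for Eif4g1 RNA, from -0.27 to 0.17 for Eif4g3 RNA and from -0.3 to 0.02 for Mknk2 footprints. The change in translational efficiency ran from -0.47 to 0.79 for Eif4g1 and from -0.11 to 0.31 for Eif4g3. In footprints it ran from -0.99 to -0.17 for Eif4g1-201, from -0.79 to 6.34 for Eif4g1-206, from -1.23 to 0.21 for Eif4g1-216, from -0.08 to 0.12 for Eif4g3-202 and from -0.05 to 0.16 for Eif4g3-214. In RNA it ran from -1.68 to -0.39 for Eif4g1-201, from 0.06 to 1.54 for Eif4g1-206, from -1.22 to 0.02 for Eif4g1-216, from -0.13 to 0.2 for Eif4g3-202, from -0.68 to 0.89 for Eif4g3-214 and from -0.29 to 0.17 for Eif4g1-209. In translational efficiency it ran from -0.1 to 1.17 for Eif4g1-201, from -1.4 to 5.72 for Eif4g1-206, from -0.71 to 0.9 for Eif4g1-216, from -0.13 to 0.17 for Eif4g3-202 and from -0.87 to 0.83 for Eif4g3-214. Usage in footprints ran from -0.32 to 0.03 for Eif4g1-201 and from -0.12 to 6.59 for Eif4g1-206, with 0 to 1 members called. The microexon share differed by -16.0 to 2.9 points for Eif4g1 footprints, by -0.7 to 0.5 points for Eif4g3 footprints and by -1.9 to 3.1 points for Eif4g3 RNA. The difference of Eif4g1 RNA ran from -32.0 to -13.0 points. Each DKO library lay below each WT library there, so that leaving out a library could not change its sign. Where a group was left with 1 library, that library was assumed to vary like the others. Other reversals were small: 0.01 for Eif4g3 RNA from coding isoforms alone, 0.05 for Eif4g3-202 RNA with no filter, and 0.1 points by counts and 0.4 points from complete isoforms for the Eif4g3 footprint share. With complete isoforms alone, chosen after seeing the data, the Eif4g3 share in footprints minus RNA was 1.0 points, against -13.2 points over all spanning isoforms. The share over all spanning transcripts equals the main one, since all spanning members are coding.

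Same-numbered DKO and WT libraries did not deviate together (r = -0.132 in footprints and -0.128 in RNA across 12898 genes), and share only a number. With the replicate number as a replicate block the log2 fold change was -0.44 in footprints and -0.51 in RNA for Eif4g1 and 0.06 and -0.05 for Eif4g3. With the culture as a replicate block, translational efficiency changed by 0.12 for both genes and by 1.23 for Eif4g1-206, which was negative without it. A block with crossed numbers called 0 members, as did the others.

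For the microexon share of Eif4g1, taken over counts, the counting intervals were narrower than the gaps between replicates. They leave out the error of dividing reads among isoforms. Only 2.22% of the windows of Eif4g1-201 and 1.01% of those of Eif4g1-206 set these isoforms apart. The intervals therefore cannot tell whether depth was the main limit. For the Eif4g3 share of counts not divided by length, the gaps between replicates were within the counting intervals' widths. Differences of that size were not detectable at this depth. For the share per length the gap between the WT RNA replicates was 4.9 points, and no counting interval was computed on that scale. The 8 members with at most 16 counts in a library were not tested.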
